A study of Mus musculus with 34 samples.

Results

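Fractions 4 to 6 of the coronal series of a post-natal mouse brain were examined as 1 block of neighbouring positions, taken by fraction number. The block holds 3 of the 15 coronal fractions and 3 of the 34 fractions cut in 3 planes, and it was set against the other 12 coronal fractions (1 to 3 and 7 to 15). All fractions came from brains of male C57BL/6J mice at 3 days of age, with no treatment or mutation given. Mouse 1 was cut coronally into 15 fractions, mouse 2 horizontally into 8 and mouse 3 sagittally into 11. Each fraction pooled 100 sections of 5 µm, a slab of 500 µm, except the first and last sagittal fractions, which joined 2 such slabs. The labels do not say from which end fractions were counted. Each fraction's RNA went onto 1 single-colour array, so the coronal comparison rests on 1 mouse and fractions are positions, not biological replicates. Along the coronal series a probe's level correlated with its level in the next fraction, at a median of 0.422 over probes. Neighbouring fractions thus resemble each other, and a p-value measures only the spread between positions in that brain.

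The midbrain lies between the hindbrain and the forebrain. Its roof, the tectum, holds the superior and inferior colliculi, which process vision and hearing, and its floor holds the dopamine neurons of the substantia nigra and the ventral tegmental area. The serotonin neurons of the dorsal raphe and the noradrenaline neurons of the locus coeruleus lie next to it on the hindbrain side. A flat slab at this level can also take in overlying cortex and cerebellum. In pooled tissue of this kind, fewer cells of a type and less RNA per cell cannot be told apart.

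Levels are log2 signals less the 75th percentile of their array, and a difference of 1 is a factor of 2. They can be compared between fractions for 1 probe and not between probes. On the 3 arrays of the block between 33392 and 36406 spots were well above the scanner's background, against 29598 to 35904 on the other 12 coronal arrays. The 33788 probes that were well above background in at least 3 coronal fractions were tested. The block shared 1 slide with fractions 1 to 3, 7 and 8, and the remaining coronal fractions were on other slides.

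Of the 33788 probes, 2 passed limma's test at a Benjamini-Hochberg adjusted p under 0.05 as higher in the block, which is 0.00592% of those tested, and 0 passed as lower, which is 0%. At an unadjusted p under 0.05 limma gave 2208 probes higher and 2850 lower, and no other setting called a probe lower. All 3 fractions of the block lay above all the other 12 for 522 probes (1.54%) and below them for 811 probes (2.4%). With arrays scaled on their median these counts were 382 and 958. The 522 probes differed by a median of 0.67 on the log2 scale and the 811 by a median of -0.42, while the median over all probes tested was -0.06, with 14607 of the 33788 above 0 and 19181 below. Of the 522 probes, all highest in the block by construction, 45.0% were highest in fraction 4, 41.6% in fraction 5 and 13.4% in fraction 6. The order was the same over all probes tested, with 2179 highest in fraction 4, 1581 in fraction 5 and 730 in fraction 6. Probes whose IDs start with A_30_, a class of long non-coding RNA probes, made up 84 of the 522 and 71 of the 811, which is 1.32% and 1.11% of the 6373 tested, and none passed limma's test.

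Atoh7, a proneural transcription factor best known for making retinal ganglion cells, was the named gene that passed the test. Its level was -0.05 in fraction 4, -1.94 in fraction 5 and -0.92 in fraction 6, and in the other 12 fractions it ranged from -5.33 to -2.95 with a median of -3.90. The 3 fractions of the block stood clear of all others, with fraction 5 the lowest of them. The difference was 2.91 (SE 0.39, 7.54-fold, adjusted p = 0.0270, limma).

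The other probe that passed, A_52_P684087, was designed to the transcript AK005214, for which no gene name was matched. It read 2.09, 0.17 and 1.28 in fractions 4, 5 and 6 and from -3.00 to -0.89 elsewhere, a difference of 3.13 (SE 0.39, limma adjusted p = 0.0241). It ranked the 3 fractions as Atoh7 did. Over the 15 coronal fractions the 2 profiles correlated at r = 0.985, and over the 19 horizontal and sagittal fractions, from other mice, at r = 0.984, points that share their arrays and scaling. Both calls were lost with the slide as a block (limma adjusted p = 0.501 for Atoh7 and 0.434 for A_52_P684087) and within the shared slide (0.752 for both, with differences of 2.61 and 2.71). They were also lost against fractions 1 to 3 and 7 to 9 alone (0.670 for both), without fraction 4 (0.242 and 0.183) and without fraction 6 (0.217 for both). The remaining block fractions lay above all others in each of these settings by construction, since both probes did so with all fractions included.

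The 250 bases before the Atoh7 start (RefSeq, GRCm38.p6, chr10:63099535-63099784, + strand) are shown because Atoh7 was the named gene that passed. They hold 3 matches, in capitals, to the E-box CANNTG, the letters that proneural factors bind. The E-box was searched on both strands and occurs in 66.2% of all 32851 promoter stretches of this length.
Atoh7: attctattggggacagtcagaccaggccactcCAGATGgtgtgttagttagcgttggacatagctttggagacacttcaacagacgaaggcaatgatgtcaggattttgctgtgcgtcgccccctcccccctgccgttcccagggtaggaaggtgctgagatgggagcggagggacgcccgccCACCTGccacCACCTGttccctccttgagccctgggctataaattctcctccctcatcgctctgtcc

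Transcription factors of the developing midbrain had the next clearest profiles. Pax7, a paired-box factor of the dorsal midbrain, read -0.82, -0.63 and -0.67 in fractions 4, 5 and 6. In the other 12 it ranged from -6.45 to -2.35 with a median of -5.65, and it was well above background in 3 of them. The block formed a plateau between -3.34 in fraction 3 and -2.35 in fraction 7. The difference was 4.58 (SE 0.70), with a limma adjusted p of 0.0577 that missed the threshold. Pou4f3, a POU-domain factor of sensory neurons, read -2.19, -2.36 and -3.26 in the block against -7.34 to -3.87 elsewhere, where 2 of 12 fractions were well above background. It met the detection filter only with the block's own fractions, so its difference of 3.45 (SE 0.53, limma adjusted p = 0.0577) is taken mostly against readings at background, and with normexp it was 0.88.

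Gata2, Gata3 and Tal1, factors found in GABA neurons of the midbrain, each lay above all the other 12 fractions. Gata3 read 2.00, 2.64 and 2.17 in the block and from -4.16 to 1.1 elsewhere, a difference of 4.60 (SE 0.96, limma adjusted p = 0.259). Tal1 read 2.60, 2.80 and 2.60 against -1.29 to 1.86, a difference of 3.08 (SE 0.57, limma adjusted p = 0.202). Gata2 read -0.48, -0.46 and -0.92 against -2.91 to -1.26, a difference of 1.66 (SE 0.31, limma adjusted p = 0.202). For all 3 genes fraction 5 was the highest of the 15, and none passed the test. Tal2, from the same list, overlapped, with a difference of 1.26, and was well above background in 2 of the 3 block fractions. Gad1, the enzyme that makes GABA, was above the other 12 in all 3 fractions, with 3.65, 3.52 and 3.40 against a highest value of 3.35 elsewhere and a difference of 0.44. Of the 9 transmitter genes tested, 8 had a difference above 0 and Gad1 was the one that did not overlap, beside 1.54% of all probes. The GABA genes Gad2 (0.54) and Slc32a1 (0.27) overlapped, as did the glutamate transporter gene Slc17a6 with a larger difference (1.35).

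Of the 16 genes listed for the tectum and midbrain neurons, 13 were tested, 0 passed and 6 lay above the other 12 fractions in all 3 (Pou4f3, Tfap2b, Sox14, Tal1, Gata2 and Gata3), beside 1.54% of all probes. All 13 had a difference above 0, with a median of 2.53, beside -0.06 over all probes. Pou4f3 met the detection filter only with the block's own fractions, so the count of 6 and the median rest partly on it. Normexp brought list medians closer to 0, to 1.17 here, 1.17 for midbrain patterning, 2.31 for the Iroquois genes, 2.34 for noradrenaline, 1.47 for serotonin and 1.15 for dopamine. Tfap2b, an AP-2 factor, read 3.24, 3.60 and 3.36 against -2.91 to 2.93. Sox14, a factor of GABA neurons, read -2.46, -2.68 and -2.72 against -6.74 to -3.25, and 4 of the other 12 fractions were well above background. Pou4f2 and Pou4f1, POU factors of retinal and tectal neurons, overlapped fraction 3 and dropped at fraction 7. Pou4f2 read 2.32, 2.49 and 1.81 in the block, 2.37 in fraction 3 and -0.74 in fraction 7. Pou4f1 read 1.44, 1.78 and 1.57 in the block, 2.24 in fraction 3 and -0.58 in fraction 7. Within the shared slide their differences were 2.44 and 0.60, against 5.16 and 2.66 over all 12 fractions. Barhl2, Bhlhe23 and Helt were not well above background in enough fractions to be tested.

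Of the 15 genes listed for midbrain patterning, 13 were tested, with a median difference of 2.22, and Pax7 was the one that did not overlap. Of the 13, 7 were highest in fractions 1 to 3 and 3 in the block. En1 was well above background in 2 of the 15 coronal fractions and Pax5 in 1, so neither was tested. En2, a homeobox factor of the midbrain and cerebellum, was highest in fraction 3 (3.06) and read 2.88, 1.88 and 1.15 in the block and -1.01 in fraction 7, with a difference of 3.17 that was 0.92 within the shared slide. Otx2, a homeobox factor of the early forebrain and midbrain, was also highest in fraction 3 (3.59) and read 3.25, 3.54 and 3.21 in the block. The summed level of the genes listed for the choroid plexus, on a log2 scale, was highest in fraction 3 too (8.475). The part of choroid plexus in the Otx2 values was not tested. Foxa2, a forkhead factor of the midbrain floor, was instead lowest in fraction 4 of the block, with -1.43, 0.07 and 0.75, and read -0.44 in fraction 7. Its difference of 5.14 (SE 1.12) had a limma adjusted p of 0.316. Wnt1 and Meis2 had differences below 0 (-0.15 and -0.48), and Meis2 read above 0 within the shared slide (0.48). Pax2, Pax3, Lmx1b and Gbx2 had differences above 0 against all 12 fractions and below 0 within the shared slide, and that of Pax3 (2.22, then -0.30) is the list's median. All 6 Iroquois homeobox genes, which help to subdivide the midbrain and hindbrain, had differences above 0, with a median of 3.18. Of the 6, 4 were highest in the block and 2 in fractions 1 to 3. Their summed level, on a log2 scale, was highest in fraction 3 (4.43) and was 4.42, 4.24 and 4.05 in the block. Irx6 read 0.79, 0.88 and 0.08 against a highest value of -0.16 elsewhere and was the one Iroquois gene that did not overlap.

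**Figure D1:**
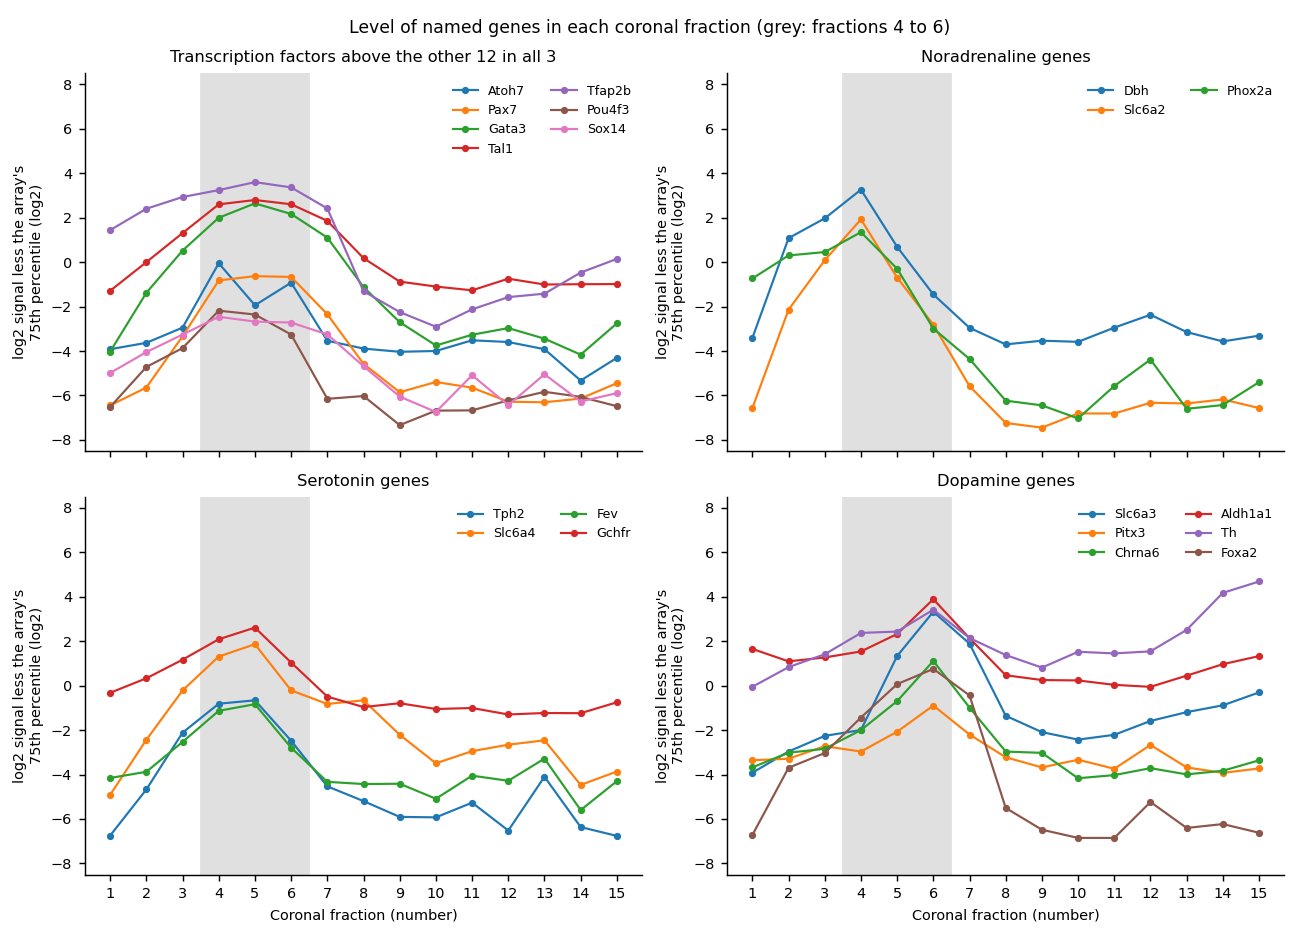
Level of named genes (log2 signal less the array's 75th percentile, y axis) in each of the 15 coronal fractions (x axis, 1 array each, so without error bars), with fractions 4 to 6 in grey and heights not comparable between genes. Pax7, Tal1, Tfap2b and Sox14 stay nearly level over the block, Gata3 is highest in fraction 5, Atoh7 dips in fraction 5 and Pou4f3 falls in fraction 6. The noradrenaline genes are highest in fraction 4, the serotonin genes in fraction 5, and Slc6a3, Pitx3, Chrna6 and Aldh1a1 in fraction 6.

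The aminergic genes were highest in different fractions of the block. All 4 noradrenaline genes were highest in fraction 4, with a median difference of 4.43. Dbh, the enzyme that makes noradrenaline from dopamine, read 3.26, 0.69 and -1.45 in fractions 4, 5 and 6, and elsewhere from -3.70 to 1.97, the latter in fraction 3. The noradrenaline transporter Slc6a2 read 1.92, -0.70 and -2.82, against 0.09 in fraction 3 and -5.58 in fraction 7. Phox2a, a factor that specifies noradrenaline neurons, read 1.35, -0.30 and -2.99. The spread within the block was wide, with an SD of 2.36 for Dbh over the 3 fractions, and fraction 3 was higher than fraction 6 for all 4 genes. The difference was 3.29 for Dbh, 3.73 for Phox2a and 5.13 for Slc6a2, and none of the 4 genes passed the test. That of Phox2a was 1.47 within the shared slide. Outside the block Slc6a2 was well above background in 2 fractions, so it met the detection filter only with the block's own fractions. Its difference is therefore taken mostly against readings at background, and with normexp it was 2.29. The list median of 4.43 rests partly on this Slc6a2 value.

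Serotonin genes centred on fraction 5, where 5 of the 6 tested were highest. Tph2, the enzyme that starts serotonin synthesis in the brain, read -0.81, -0.66 and -2.48, against -2.12 in fraction 3 and -4.53 in fraction 7. The serotonin transporter Slc6a4 read 1.31, 1.86 and -0.21, and the highest value elsewhere was -0.22. That gap was narrow, and the values overlapped when arrays were scaled on their median or corrected by normexp. Fev, the factor that specifies serotonin neurons, read -1.13, -0.84 and -2.79, and Gchfr, a regulator of cofactor synthesis, 2.09, 2.61 and 1.04. For Tph2, Fev and Gchfr fraction 6 was below fraction 3, so the groups overlapped. The median difference of the list was 2.58, and none passed the test, with a limma adjusted p of 0.202 for both Tph2 and Fev and 0.184 for Gchfr. Maob, which breaks down amines, differed by 0.04. The transporter Slc22a3 was not well above background in any coronal fraction.

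Of the 12 dopamine genes, 4 were highest in fraction 6 (Slc6a3, Pitx3, Chrna6 and Aldh1a1), 2 in fraction 4, 2 in fraction 5 and 4 outside the block. Slc6a3, the dopamine transporter, read -2.0, 1.33 and 3.33 across the block, then 1.89 in fraction 7 and -1.36 in fraction 8. In fraction 4 it was below the median of the fractions outside the block, -1.84. Pitx3, a homeobox factor of dopamine neurons, read -2.97, -2.07 and -0.89, and Chrna6, a nicotinic receptor subunit of these cells, -2.0, -0.70 and 1.11. Aldh1a1, an aldehyde dehydrogenase found in part of the dopamine neurons, read 1.54, 2.32 and 3.89. All 3 overlapped fraction 7 through their values in fraction 4. Nr4a2, a nuclear receptor that specifies dopamine neurons, was highest in fraction 7 (3.95) and read 2.07, 3.20 and 3.18 in the block, a difference of 0.98. Ret, a growth factor receptor, was highest in fraction 4 and differed by 1.57.

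Ddc, Slc18a2 and Slc10a4, which serve several kinds of aminergic neuron, lay above the other 12 fractions in all 3. Ddc, the decarboxylase, read 3.20, 3.42 and 2.62 against a highest value of 1.93, and the vesicle transporter Slc18a2 read 1.49, 1.27 and 0.92 against 0.58. Slc10a4, a vesicle protein, read -0.54, -0.37 and -0.76 against -0.83. Th, the first enzyme of the pathway, read 2.37, 2.43 and 3.42, but was highest in fractions 14 and 15 (4.18 and 4.69). Over the 12 dopamine genes the median difference was 1.49, all 12 were above 0, 3 did not overlap, beside 1.54% of all probes, and 0 passed the test.

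The stretches before the starts of Tal1 (chr4:115056176-115056425, + strand, the first of 2 listed starts) and Tph2 (chr10:115185023-115185272, - strand) are shown. They are 2 of the 3 genes that held the match below. Both were highest in fraction 5, but so were Pax7, Tfap2b, Gata2 and Gata3, which held no such match. Matches to AGATAA, letters that GATA factors bind, were searched on both strands and are in capitals (RefSeq, GRCm38.p6). Of 14 genes looked at, 12 had a promoter stretch that entered the search. A chromosome was left out for these genes and not for the share over all stretches. Of the 12, 3 held this match (Tal1, Tph2 and Fev) and 4 held an E-box, while 9.99% of all stretches hold AGATAA. A match describes the letters only.
Tal1: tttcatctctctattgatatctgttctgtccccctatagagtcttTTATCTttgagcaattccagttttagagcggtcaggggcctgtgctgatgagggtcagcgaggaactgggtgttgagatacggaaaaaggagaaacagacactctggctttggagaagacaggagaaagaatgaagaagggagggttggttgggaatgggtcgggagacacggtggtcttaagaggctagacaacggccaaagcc
Tph2: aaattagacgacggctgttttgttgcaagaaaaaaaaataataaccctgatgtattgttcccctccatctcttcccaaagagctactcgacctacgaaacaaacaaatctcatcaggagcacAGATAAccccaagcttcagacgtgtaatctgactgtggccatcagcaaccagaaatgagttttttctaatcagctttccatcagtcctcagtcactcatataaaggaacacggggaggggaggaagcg

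The block also held RNA of genes that mark other regions. Tbr1, a factor of cortical neurons, read -1.13 in fraction 3 and -1.51, 2.41 and 3.05 in the block, and Fezf2, another, -6.87, -0.55 and -0.13. None of the 11 cortex genes was highest in the block. Hox genes, which mark the hindbrain and spinal cord, went the other way across the block. Of the 15 tested, all were highest in fractions 1 to 3, and 12 were well above background in all 3 fractions of the block. Against the other 12 coronal fractions, 12 of the 15 still had a difference above 0, with a median of 1.11 (0.18 with normexp). Hoxb5 read 3.80 in fraction 3 and 1.50, -2.25 and -1.20 in the block. Pcp2, a Purkinje cell gene, read 2.41, 2.08 and 1.01 in the block and 4.50 in fraction 3. Within the block, fraction 4 was the highest for the hindbrain and Purkinje genes named here and the lowest for the forebrain ones. Their part in the differences above was not tested.

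Genes of other cell types also varied within the block. Of the 6 skeletal muscle genes tested out of 8 listed, 5 were highest of all 15 coronal fractions in fraction 6. Myl1, a fast myosin light chain, read -3.41, -3.56 and 1.38, and Tnni2, a troponin, -1.38, -1.20 and 2.45. The summed level of the list, on a log2 scale, was 1.43, 1.16 and 3.90 in fractions 4, 5 and 6, against 1.30 to 2.01 in the other 12. The part of muscle in the values of fraction 6, where 4 dopamine genes were highest too, was not tested. Among glia, P2ry12, a receptor of resting microglia, read -0.91, -0.83 and -0.82, all above its highest value of -1.04 elsewhere, a difference of 0.82. The other 7 microglia genes overlapped, and 6 of the 8 were below 0 (list median -0.14).

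The genes named for the largest upward differences were Atoh7, which passed, and others that did not, of which 12 are reported here, with differences from 3.73 (Phox2a) to 5.16 (Pou4f2). Those not yet described were Pitx1, C1ql4, Evx1, Barhl1 and Foxa1. C1ql4, a secreted C1q-like protein of synapses, read -0.62, -1.07 and -1.24 against a highest value of -2.07 elsewhere and was the one of these 5 that did not overlap. Pitx1, a homeobox factor of the pituitary, read -0.95, -0.73 and -1.98, with -1.77 in fraction 3. Foxa1, a relative of Foxa2, read -0.54, -0.38 and 1.38, with 1.25 in fraction 7. Evx1, a homeobox factor of spinal and hindbrain interneurons, was highest in fraction 2 (-0.11) and read -0.25, -0.60 and -1.22 in the block. The 2 probes of Barhl1 disagreed in size, with a difference of 3.76 (1.01 within the shared slide) for A_52_P65084 and 0.68 for A_51_P183971. For 9 of these 13 genes 2 to 5 of the other 12 fractions were well above background, so these differences include readings at background.

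**Figure D2:**
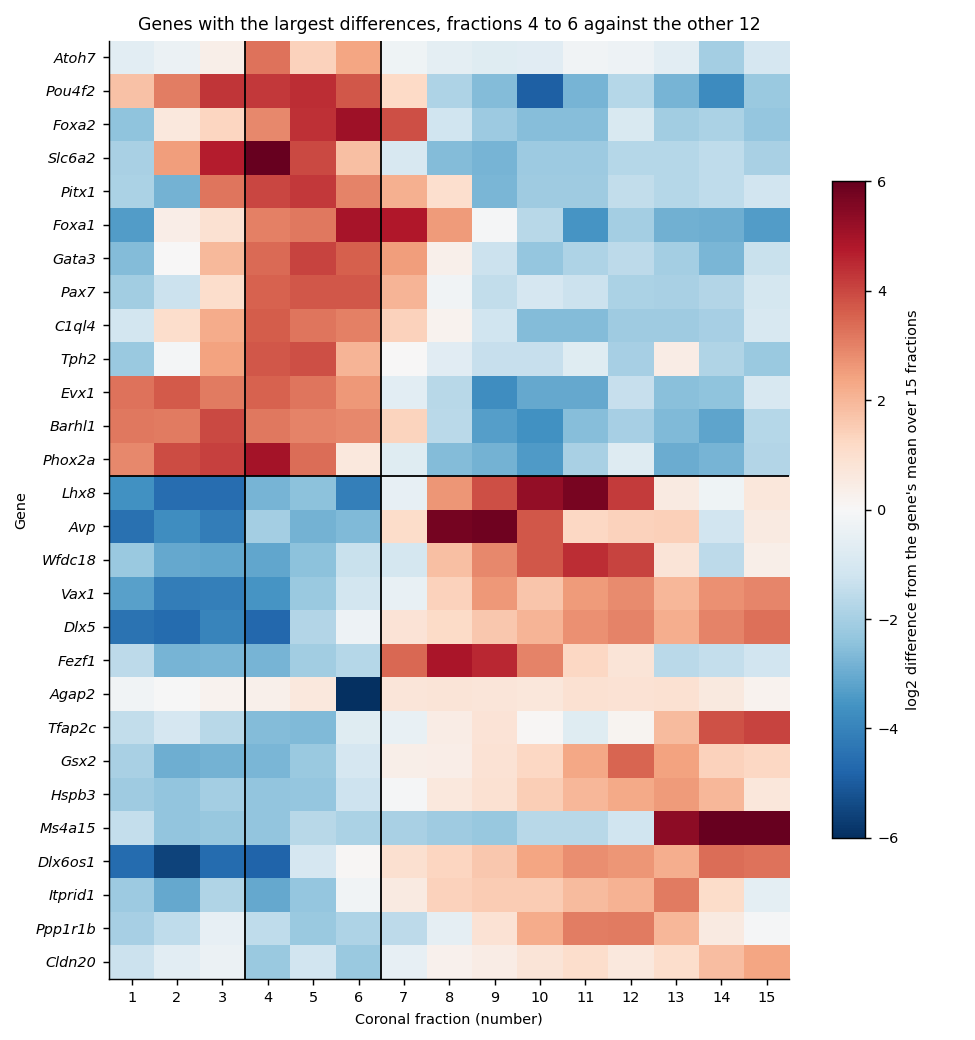
Log2 difference of each gene (rows) from its own mean over the 15 coronal fractions (columns, 1 array each) for 13 genes named for upward differences (top) and the 15 for downward differences (bottom), with fractions 4 to 6 between the vertical lines. Atoh7 passed limma's test and the others did not, and many of the upper genes are also high in fraction 3 or 7.

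Downward, none of the 15 named genes passed the test, and all 15 overlapped the other fractions. Lhx8, a LIM factor of cholinergic neurons of the basal forebrain, was not well above background in fractions 4 to 6 and reached 2.82 in fraction 11, so the mean of the other 12 was at least 8.24-fold higher. Fractions 1 to 3 were as low, at -6.52, -7.46 and -7.43. Fezf1, a factor of the hypothalamus, was likewise not well above background in the block, was highest in fraction 8 (0.25) and was at least 2.04-fold higher on average outside. The same bound was 2.45-fold for Wfdc18, 1.79-fold for Gsx2, 1.73-fold for Cldn20 and 1.21-fold for Ms4a15.

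Avp, the vasopressin precursor of the hypothalamus, read -4.14, -4.94 and -4.77 in the block and up to 3.73 in fraction 9. Dlx5 and Dlx6os1, of forebrain GABA neurons, differed within the block, from -6.83 and -6.69 in fraction 4 to -2.41 and -1.80 in fraction 6. Within the shared slide the differences of Dlx6os1 (0.60) and Ms4a15 (0.057) were above 0. Ppp1r1b, a phosphoprotein of striatal neurons, read 0.79, 0.07 and 0.46 against a highest value of 5.43 in fraction 12. Agap2 owed its place to 1 reading, -2.92 in fraction 6, against 4.61 and 4.94 in fractions 4 and 5 and 4.10 to 5.24 elsewhere.

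Probes of haemoglobin were among those that lay below all others in the block. All 6 erythroid genes tested had differences below 0, with a median of -1.01, 0 passed and 3 did not overlap, beside 2.4% of all probes. Hbb-bs read -1.88, -1.90 and -1.67 against a lowest value of -1.50 elsewhere, and Hbb-bt 1.32, 1.50 and 1.57 against 1.69. Hbb-b2 read -1.48, -1.28 and -1.25 against -1.18. These genes are near-identical copies, so their probes are uncertain as to which copy they read. Itpr1, a calcium channel abundant in Purkinje cells, read 1.72, 1.97 and 2.16 against a lowest value of 2.19, a gap that closed under median scaling, quantile normalization and normexp, while the other 7 Purkinje genes were above 0 (list median 0.70). Prkcd, a kinase of thalamic neurons, read -0.17, -0.17 and -0.05 against -0.03, but its other probe overlapped, and 4 of the 8 thalamus genes were above 0 and 4 below. All 8 cell cycle genes had differences below 0 (median -0.46), none without overlap, and were highest in fractions 1 to 3. All 7 olfactory bulb genes were below 0 as well, with a median of -1.34, and were highest in fractions 10 to 15.

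**Figure D3:**
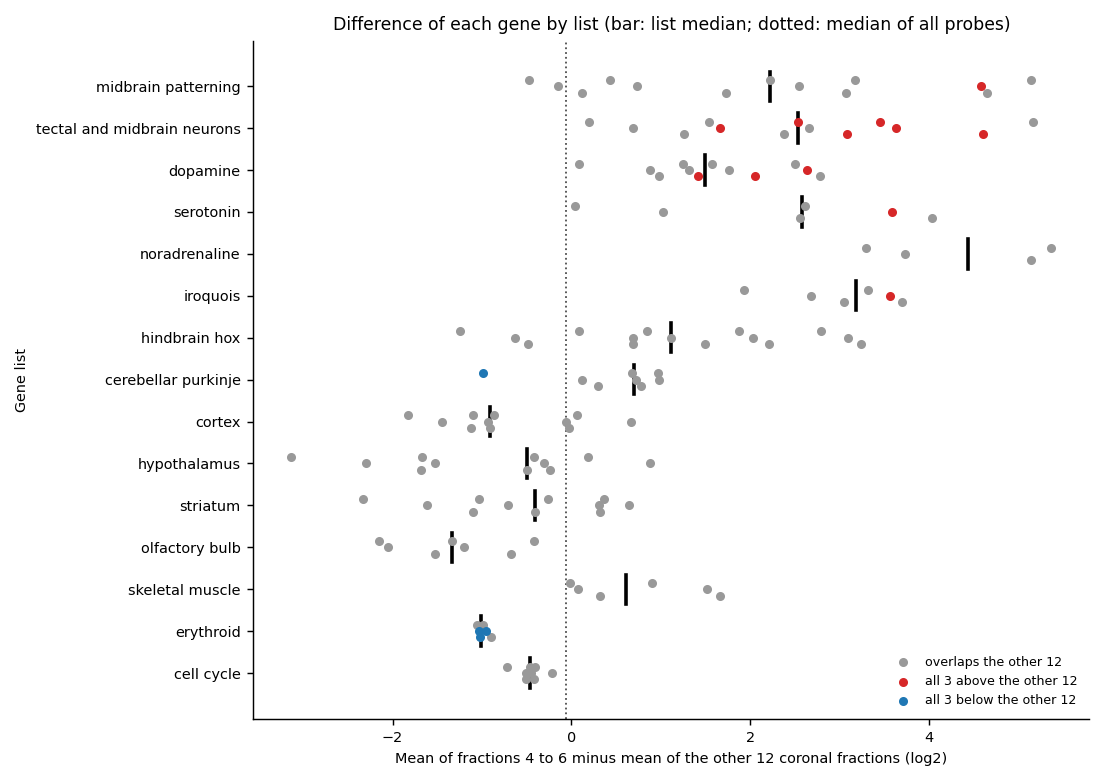
Difference of each tested gene (x axis, mean of fractions 4 to 6 minus mean of the other 12 coronal fractions, log2) by gene list (y axis), with red for genes above and blue for genes below all other fractions in all 3, a bar for the list median and a dotted line for the median of all probes, -0.06. The noradrenaline, Iroquois, serotonin and tectal lists have the highest medians, and the erythroid and cell cycle genes all lie below 0.

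The same probes were followed in the horizontal and sagittal series, which come from other mice and give no position along the coronal axis. Of the 522 probes above in all 3 coronal fractions, 451 (86.4%) were highest in sagittal fractions 4 to 8, against 35.3% of all probes tested. Few were highest at the sides, 26 in fractions 1 to 3 and 45 in fractions 9 to 11. In the horizontal series 230 of them (44.1%) were highest in fractions 3 and 4 and 171 (32.8%) in fractions 7 and 8, against 23.0% and 22.7% of all probes. Of the 811 probes below in all 3, 637 (78.6%) were highest in horizontal fractions 1 and 2 and 633 (78.1%) in sagittal fractions 1 to 3, against 41.9% and 41.8% of all probes.

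**Figure D4:**
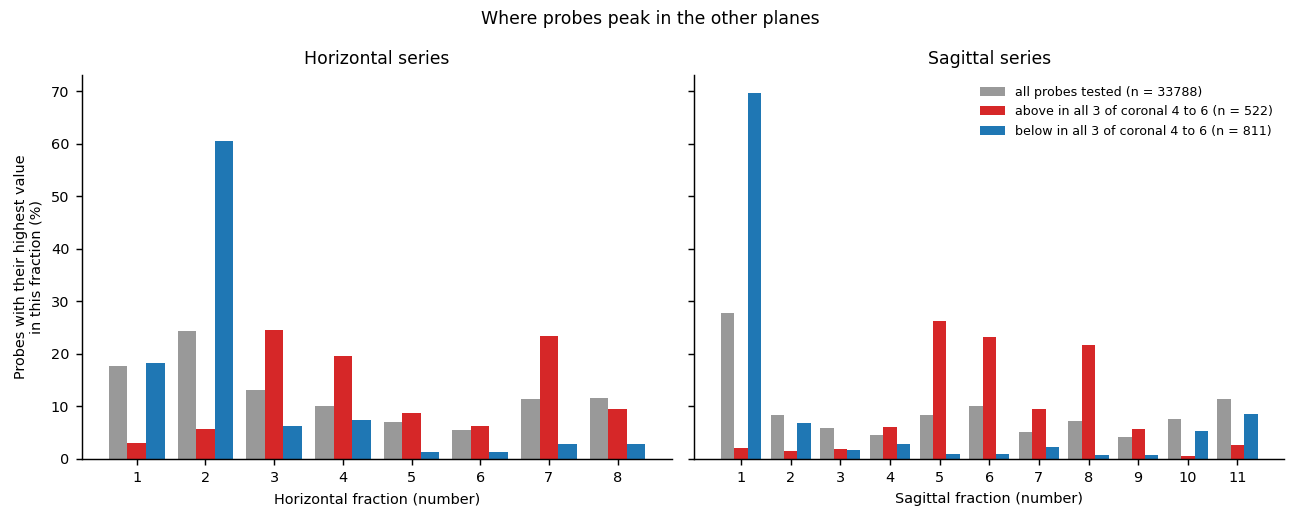
Share of probes (y axis, percent) whose highest value fell in each horizontal (left) or sagittal (right) fraction (x axis), for all 33788 probes tested, the 522 above and the 811 below in all 3 coronal fractions. The probes above peak in the middle sagittal fractions and at horizontal fractions 3, 4 and 7, and those below peak in sagittal fraction 1 and horizontal fraction 2.

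Tectal and aminergic genes separated in the horizontal plane. All 13 tectal genes tested were highest in horizontal fractions 1 to 3, while 9 of the 12 dopamine genes, all 4 noradrenaline genes and 4 of the 6 serotonin genes were highest in fractions 5 and 6. Over all probes tested 17.6%, 24.3% and 13.0% were highest in horizontal fractions 1, 2 and 3, and 12.4% in fractions 5 and 6. So were 8 of 11 cortex genes and all 8 endothelial genes in fractions 1 to 3. Pou4f2 read 2.47 in horizontal fraction 3 and -1.46 in fraction 6, and Slc6a3 read -3.14 and 2.32 in the same fractions. In the sagittal series 5 of the 6 serotonin genes were highest in fraction 6, with Tph2 at -1.29 there and -3.42 and -2.17 on either side. Dbh had separate peaks of 1.94 in sagittal fraction 5 and 1.93 in fraction 8 with -1.07 in fraction 6. Slc6a2 had 0.08, 0.08 and -4.52 in the same fractions.

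Atoh7 was highest in horizontal fractions 6 and 7 (-1.55 and -1.49, against -4.20 in fraction 2), whereas Pax7 and Gata3 were highest in fraction 2. Of the 13 midbrain patterning genes, 5 were highest in horizontal fractions 1 to 3, 5 in 5 and 6 and 2 in 7 and 8. In the sagittal series Atoh7 had separate peaks towards both sides, -0.70 in fraction 3 and -0.78 in fraction 9, and read -3.95 in fraction 6. A_52_P684087 had 1.49 and 1.43 in fractions 3 and 9 and -2.27 in fraction 6. Pax7 instead read -1.48 in sagittal fraction 6 and -2.93 and -3.57 in fractions 3 and 9.

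**Figure D5:**
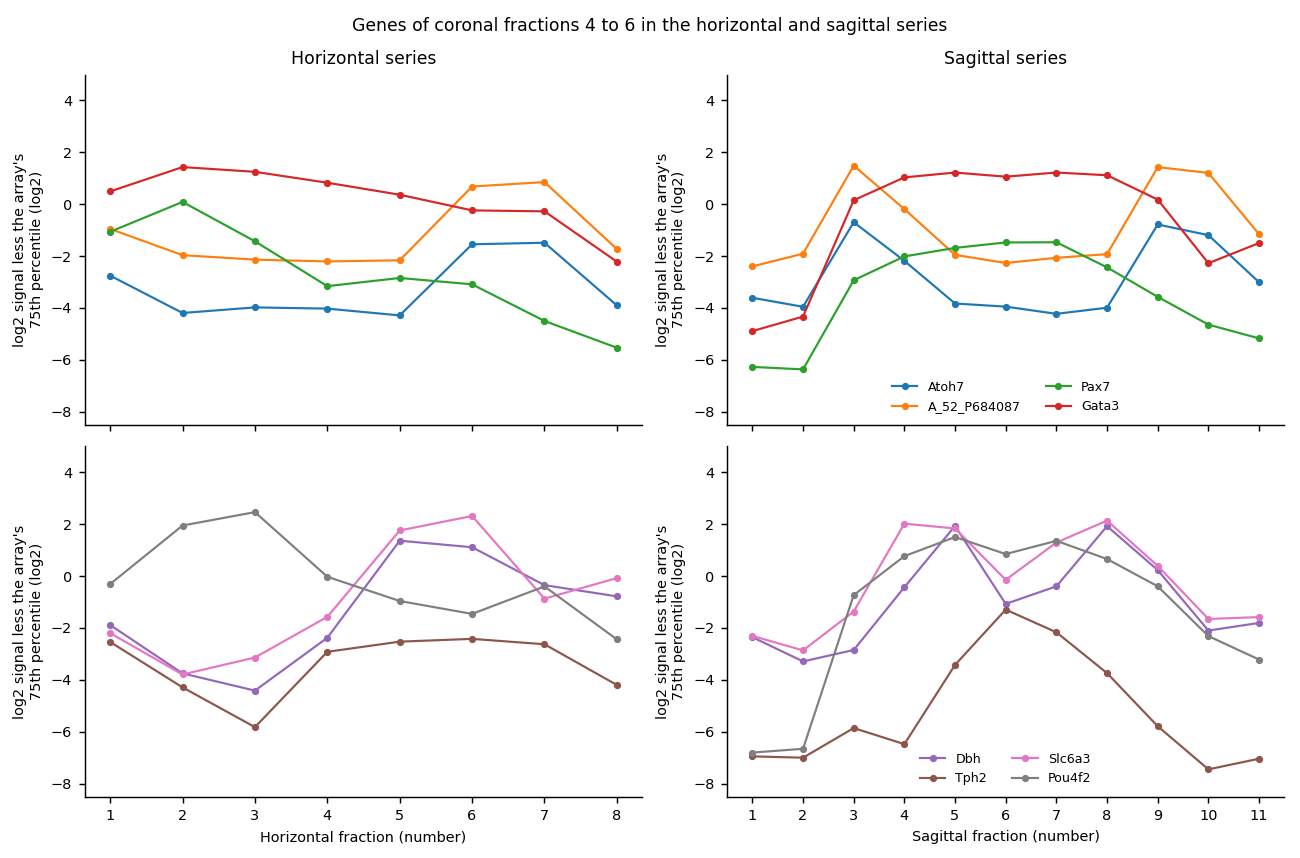
Level of named genes and 1 unnamed probe (y axis, log2 signal less the array's 75th percentile) in the 8 horizontal (left) and 11 sagittal (right) fractions (x axis, 1 array each, other mice than the coronal series). Atoh7 and A_52_P684087 share peaks at horizontal fractions 6 and 7 and sagittal fractions 3 and 9, and Dbh and Slc6a3 have separate sagittal peaks on either side of fraction 6.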

How the data were processed

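Total RNA of each brain fraction was hybridised with Cy3 label to 1 single-colour Agilent array and read with Agilent Feature Extraction 10.10.1.1. The deposited scanner files hold spot intensity for 55681 probes other than controls, background-subtracted by the scanner software. The authors also deposited log2 values for 43199 probes. Set against the scanner files, at least 99.89% of an array's values lay within 0.02 of log2 processed signal less the array's 75th percentile, with no centring of genes. Column medians were -2.44 to -2.24. Symbols were matched for 23369 of the 43199 probes. No per-sample column was left without a sample (0 columns).

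Fractions were grouped by the number in their titles. Probes well above background in at least 3 of the 15 coronal fractions (33788) entered 1 linear model per probe, block against the other 12, in limma 3.58.1 (R 4.3.3) with moderated variances, and p-values were adjusted by Benjamini-Hochberg over all 33788. Python 3.11.15, numpy 2.4.6 and pandas 2.3.3 made the tables. A probe was also counted when all 3 block fractions lay above, or below, all others. Simulated data of 33788 probes had noise drawn independently for each array and a flat shift planted over the block. Of planted differences, 49 of 100 of log2 size 1 and 89 of 100 of size 2 were recovered, with 6 false calls. With nothing planted 0 calls were made. Real fractions are neighbouring positions that resemble each other, so these rates do not carry over to them.

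Genes were named by a rule. It took the 15 largest differences each way, passing genes first and 1 probe per gene, and every tested gene of the midbrain, tectal, amine and Edinger-Westphal lists. Of the other lists it took genes that define other tissues. Some genes that the rule names are not reported here, though list counts include them. A listed gene with several probes is given by its brightest, and for 9 named genes probes differed by more than 1 on the log2 scale. Irx6, Gad1, Itpr1, Prkcd, P2ry12, Hoxb5, Myl1, Tnni2 and the haemoglobin genes were picked from their lists after their values were seen. The block, its rule and all lists were chosen with earlier results of these data known. For a gene not well above background in the block, a fold is a bound, the mean of the other 12 over the block's mean of, per array, the higher of its own reading and the lowest signal among probes well above background. Alternatives covered the source of the values, median scaling, quantile normalization, normexp with an offset of 50, detection filters, the variance trend, slide, reference fractions and leaving out a fraction. The number of arrays limits the precision.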

Additional observations from a re-analysis of the deposited data

Results flagged for a closer look

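Among 72 named probes, 6 had 1 horizontal fraction standing apart from the other 7 by Dixon's ratio, where chance marks about 1 in 20 groups. Gata3 was lowest in horizontal fraction 8, at -2.22 against -0.28 for the next. Barhl1 (A_52_P65084) was lowest in the same fraction, at -1.74 against 0.62. Cldn20 was lowest there too, at -5.64 against -4.33. Evx1 was lowest in horizontal fraction 2, at -7.26 against -4.26. Gbx2 was lowest in fraction 2 as well, at -5.80 against -1.94. Gch1 was highest in fraction 2, at 1.80 against 0.28. These fractions come from 1 mouse in positional order, and the causes were not tested.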

How the results depend on the processing

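The count of probes passing limma's test as higher, 2 with the values as deposited, was 11 with normexp, 5 with the stricter detection filter (all 3 block fractions or at least 12 of 15, which rests partly on detection in the block itself), and 0 with the slide as a block, within the shared slide, or against the flanking fractions alone. Leaving out 1 block fraction gave 0 to 2, with 0 without fraction 4 or fraction 6. The count of lower probes was 0 in every setting. Probes above all others numbered 868 within the shared slide and 656 to 1260 with 1 block fraction left out, and probes below all others 1368 and 1061 to 1436. These settings ask for separation from fewer fractions or of fewer fractions, so all 522 and 811 probes are among them by construction. Of the 522 and 811, 354 and 659 remained with median scaling, 436 and 599 with quantile normalization, and 377 and 473 with normexp. Unadjusted p under 0.05 was reached by 5058 probes, and by 1393 with the slide as a block.

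Of 923 pairs of a named probe and an alternative setting, 20, from 9 of 72 probes, changed sign, and none of those 9 had passed the test. Of the 72 probes 2 had passed, so staying past or short of the threshold says little about the rest, and differences shrank within the shared slide for En2 (3.17 to 0.92), Pou4f1 (2.66 to 0.60), Barhl1 (3.76 to 1.01) and Phox2a (3.73 to 1.47). With the slide as a block and within the shared slide the differences were 0.057 for Ms4a15, 0.60 for Dlx6os1, -0.059 for Pax2, -0.30 for Pax3, -0.28 for Lmx1b, -0.85 for Gbx2 and 0.48 for Meis2. Against flanking fractions alone they were 0.10 for Ms4a15, -0.18 for Lmx1b, -0.95 for Gbx2 and 0.34 for Meis2. Leaving out 1 block fraction gave -0.000573 to 0.144 for Drd2 and -0.18 to 0.21 for Maob, the lowest without fraction 4. The causes were not tested. No paired analysis was possible because each position was measured once, in 1 mouse, and fraction numbers of different planes do not mark shared samples.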
